A study of Mus musculus with 12 samples.

Results

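The mitochondrial ribosomal protein genes are the nuclear genes whose symbols begin with Mrpl (large subunit) or Mrps (small subunit) and a number. All gene symbols of that form in the 12 count tables were taken, which gave 77 of 24421 genes, 48 of them Mrpl and 29 Mrps. Their mRNA was counted by RNA-seq in neonatal mouse cardiomyocytes of 2 sorted populations, from hearts with and without a cardiac glucose transporter transgene. The comparisons ask how the sorted populations differ, and whether a higher glucose uptake changes either of them.

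All mice were of the CD1 strain at postnatal day 1. Glut1 tg mice carried the αMHC-hGLUT1 transgene, the αMHC-Cre transgene and the R26+/YFP reporter, and their controls carried αMHC-Cre and the reporter alone, according to the study's methods. The sample labels call the controls wild type, and they are called WT here. The αMHC promoter drives both Cre and human GLUT1 in cardiomyocytes, so that the YFP marks cells of the cardiomyocyte lineage. Cells were sorted on YFP and on Mitotracker, a dye that accumulates in mitochondria. The labels give Mitotracker high or low, which the study pairs with Tnnt2low and Tnnt2high, respectively, after the amount of cardiac troponin T. The sample records describe an extract of heart tissue and the study's methods describe sorted cells. Glut1 tg cells came from 4 hearts, each of which gave 1 Tnnt2low and 1 Tnnt2high library. WT cells gave 2 libraries of each population, whose labels begin with the same heart number. Thus n = 2 counts libraries that may stem from 1 heart. A further number in these WT labels differs between the replicates and is shared by both populations, and its meaning was not given.

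Mitochondrial ribosomes translate the few mRNAs that mitochondrial DNA encodes, all of them for subunits of the respiratory chain and ATP synthase. Their RNAs are transcribed inside the organelle, whereas every one of their proteins is encoded in the nucleus, made in the cytosol and imported. Many of these proteins descend from bacterial ribosomal proteins and keep their place in the subunit, and others joined the ribosome only in mitochondria. The heart depends on oxidative phosphorylation, and its mitochondria multiply and mature around birth.

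The libraries held 4065306 to 9815069 reads assigned to genes, of which 21921 to 36085 per library fell on the 77 genes. For each read on a gene, 0.886 to 1.07 reads were counted as matching no exon in Glut1 tg Tnnt2low libraries. The values were 2.26 to 2.63 in Glut1 tg Tnnt2high, 1.13 and 1.495 in WT Tnnt2low, and 1.83 and 1.51 in WT Tnnt2high. The strand setting of the counting was not given, so these may include reads on the strand opposite an exon. Tnnt2 itself, the gene of cardiac troponin T, reached 13420 ± 632 CPM (reads per gene scaled to the library's total by TMM, SD, n = 4) in Glut1 tg Tnnt2low, 17956 ± 2275 (n = 4) in Glut1 tg Tnnt2high, 16236 ± 699.5 (n = 2) in WT Tnnt2low and 16728 ± 669.6 (n = 2) in WT Tnnt2high libraries. Reads on the mouse gene Slc2a1, which encodes Glut1, reached 73.1 ± 20.1 and 63.4 ± 25.5 CPM (SD, n = 4) in the Glut1 tg populations against 21.8 ± 8.37 and 21.1 ± 11.03 (n = 2) in WT. The transgene itself is human. In bulk libraries of this kind, fewer cells of a type and less RNA per cell cannot be told apart.

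The 77 genes lie on many chromosomes and share no single promoter. RefSeq (assembly GRCm38.p6) gave the promoter of 68 of them, and the 250 bases before the transcription start were searched on both strands for the letters of 4 motifs: GCGCATGCG (NRF1), CCGGAAGT (ETS factors such as GABP), AAGATGGCG (YY1) and CACGTG (the E-box of Myc and Max). NRF1 and GABP are known regulators of nuclear genes for mitochondrial proteins. Below are the promoters of 3 genes that were lower in Glut1 tg Tnnt2low cells and together hold all 4 motifs, and of Mrpl10, which holds the NRF1 motif and did not pass the test. Each is written 5′ to 3′ along the gene's strand, with motif matches in capitals. Mrpl32 (chr13:14613038-14613287, minus strand) has the NRF1 letters on both strands, overlapping, at 87 and 86 bases before the start, and again at 23. Mrpl18 (chr17:12916092-12916341, minus strand) has the ETS letters 240 bases before the start. Mrpl36 (chr13:73330759-73331008, plus strand) has the E-box at 43 and the YY1 letters at 31 bases. Mrpl10 (chr11:97041332-97041581, plus strand) has the NRF1 letters at 135 bases. These starts are those of RefSeq, and where a gene has several promoters the first listed is printed. By the gene limits of GENCODE vM21, the windows of Mrpl18 and Mrpl36 lie wholly within the gene, and those of Mrpl32 and Mrpl10 partly. All marked matches but that of Mrpl10 then lie inside the gene. The distances before the start therefore hold for the RefSeq start only.
Mrpl32: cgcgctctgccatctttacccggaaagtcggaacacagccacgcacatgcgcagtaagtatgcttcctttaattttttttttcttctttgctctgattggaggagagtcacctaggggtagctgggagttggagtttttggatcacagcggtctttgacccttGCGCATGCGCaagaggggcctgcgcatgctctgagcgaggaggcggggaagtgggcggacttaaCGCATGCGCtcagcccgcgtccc
Mrpl18: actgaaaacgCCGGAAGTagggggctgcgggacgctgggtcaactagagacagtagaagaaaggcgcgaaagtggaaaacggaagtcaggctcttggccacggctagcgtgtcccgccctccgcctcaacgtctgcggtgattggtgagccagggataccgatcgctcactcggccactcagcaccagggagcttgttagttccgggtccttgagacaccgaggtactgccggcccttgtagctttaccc
Mrpl36: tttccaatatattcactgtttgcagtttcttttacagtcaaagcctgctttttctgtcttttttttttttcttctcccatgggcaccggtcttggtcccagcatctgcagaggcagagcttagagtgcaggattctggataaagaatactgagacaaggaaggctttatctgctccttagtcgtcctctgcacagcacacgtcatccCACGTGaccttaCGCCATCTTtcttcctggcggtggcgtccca
Mrpl10: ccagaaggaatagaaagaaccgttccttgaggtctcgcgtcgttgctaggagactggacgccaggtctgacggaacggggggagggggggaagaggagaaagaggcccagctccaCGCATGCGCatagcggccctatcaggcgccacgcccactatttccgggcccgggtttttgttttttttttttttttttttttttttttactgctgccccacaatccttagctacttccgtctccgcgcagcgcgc

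Of the 68 genes with a promoter, 7 held the NRF1 letters (10.3%, against 1.64% of all 27025 genes with a promoter) and 10 held the ETS letters (14.7% against 3.23%). The YY1 letters were in 2 (2.94% against 0.71%) and the E-box in 5 (7.35% against 6.86%). No promoter held 2 of the first 3 motifs, and 46 held none of the 4. The E-box was thus about as frequent as in other promoters, and the other motifs were present in larger shares. A match describes letters in a window and does not show a bound site.

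The genes were expressed at lower levels in Tnnt2low than in Tnnt2high cells of Glut1 tg hearts, in both subunits. Their summed level was 3450.1, 3791, 3799.9 and 3899 CPM in the 4 Glut1 tg Tnnt2low libraries and 6149, 6223, 5436 and 5692 CPM in the Tnnt2high libraries of the same hearts. Every Tnnt2low library lay below every Tnnt2high library. In WT hearts the sums were 3721 and 4363 CPM in Tnnt2low and 5687 and 4411 CPM in Tnnt2high libraries. Both WT Tnnt2low sums lay below both Tnnt2high sums, but 1 pair differed by little.

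The large-subunit genes summed to 2451 ± 152 CPM (SD, n = 4) in Glut1 tg Tnnt2low against 3886 ± 214 (n = 4) in Tnnt2high cells, and the small-subunit genes to 1284 ± 59.8 against 1989 ± 163 CPM. In WT the large-subunit sums were 2616 ± 283 and 3261 ± 568.4 CPM (SD, n = 2), and the small-subunit sums 1426 ± 171 and 1789 ± 334 CPM. Within a genotype the balance of the subunits differed between the populations by less than the spread between libraries. Reads on Mrpl genes per read on Mrps genes were 1.91 ± 0.0903 in Glut1 tg Tnnt2low, 1.96 ± 0.0570 in Glut1 tg Tnnt2high, 1.84 ± 0.0216 in WT Tnnt2low and 1.83 ± 0.0229 in WT Tnnt2high libraries, and the groups of each genotype overlapped. Between the genotypes the ratios of Tnnt2low libraries overlapped, whereas those of Tnnt2high libraries, 1.88 to 2.01 in Glut1 tg and 1.81 and 1.84 in WT, did not, a difference that was not tested.

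**Figure D1:**
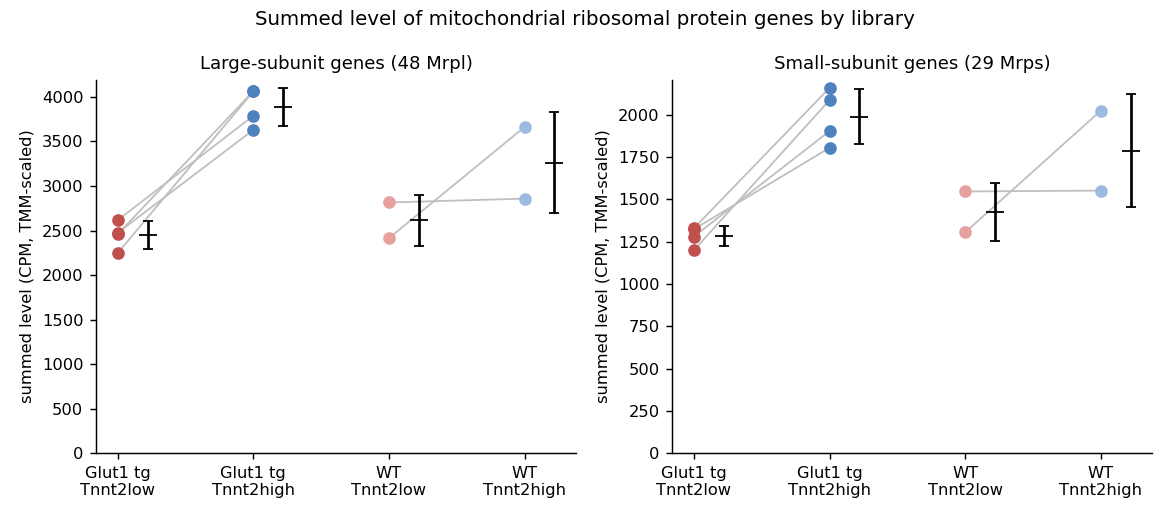
Summed CPM (vertical axis, from 0) of the 48 Mrpl genes (left) and the 29 Mrps genes (right) in each library, with 1 point per library, grey lines between the Tnnt2low and Tnnt2high libraries of the same replicate, and bars for the mean ± SD. The Glut1 tg Tnnt2low points lie below all Glut1 tg Tnnt2high points in both panels, while 1 of the 2 WT lines is nearly flat.

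In edgeR's quasi-likelihood test across all 12252 tested genes, 47 of the 77 genes were lower in Glut1 tg Tnnt2low than in Tnnt2high cells and 0 were higher (p adjusted by Benjamini-Hochberg, under 0.05). Of all tested genes 8.33% were lower and 8.42% higher (16.7% together), and of these 77 genes 61.0% were lower. DESeq2 called 52 of them, all 47 included, as lower (11.5% of the genes it tested). Without regard to multiple testing, 58 genes were lower and 0 higher at a p under 0.05 (15.3% and 15.7% of all genes). The log2 fold change was negative for 76 of the 77 genes, with a median of -0.65, that is 63.7% of the Tnnt2high level, where the median of all tested genes was -0.01. The share was 28 of 48 Mrpl genes (median -0.66) and 19 of 29 Mrps genes (median -0.64). The libraries of the 2 populations did not overlap for 51 genes, all of them lower (10.9% of all genes). Of the 47 genes, 32 passed whichever 1 of the 12 libraries was left out. The share of all genes called lower that did so is not given here.

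The size of the difference varied between hearts. The median difference of the 77 genes within a heart was -0.87, -0.67, -0.46 and -0.57 on the log2 scale in the hearts of replicates 1 to 4, and 74, 74, 64 and 70 genes were lower. Replicate 1 thus showed the largest difference of the 4 and replicate 3 the smallest, and 56 genes were lower in all of them. Shares of all genes lower within each heart are not given here. In the fit, 98.1% of members under 2000 bases and 85.7% of other genes of that length had a negative log2 fold change. At 2000 bases or more these shares were 100% and 39.8%.

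**Figure D2:**
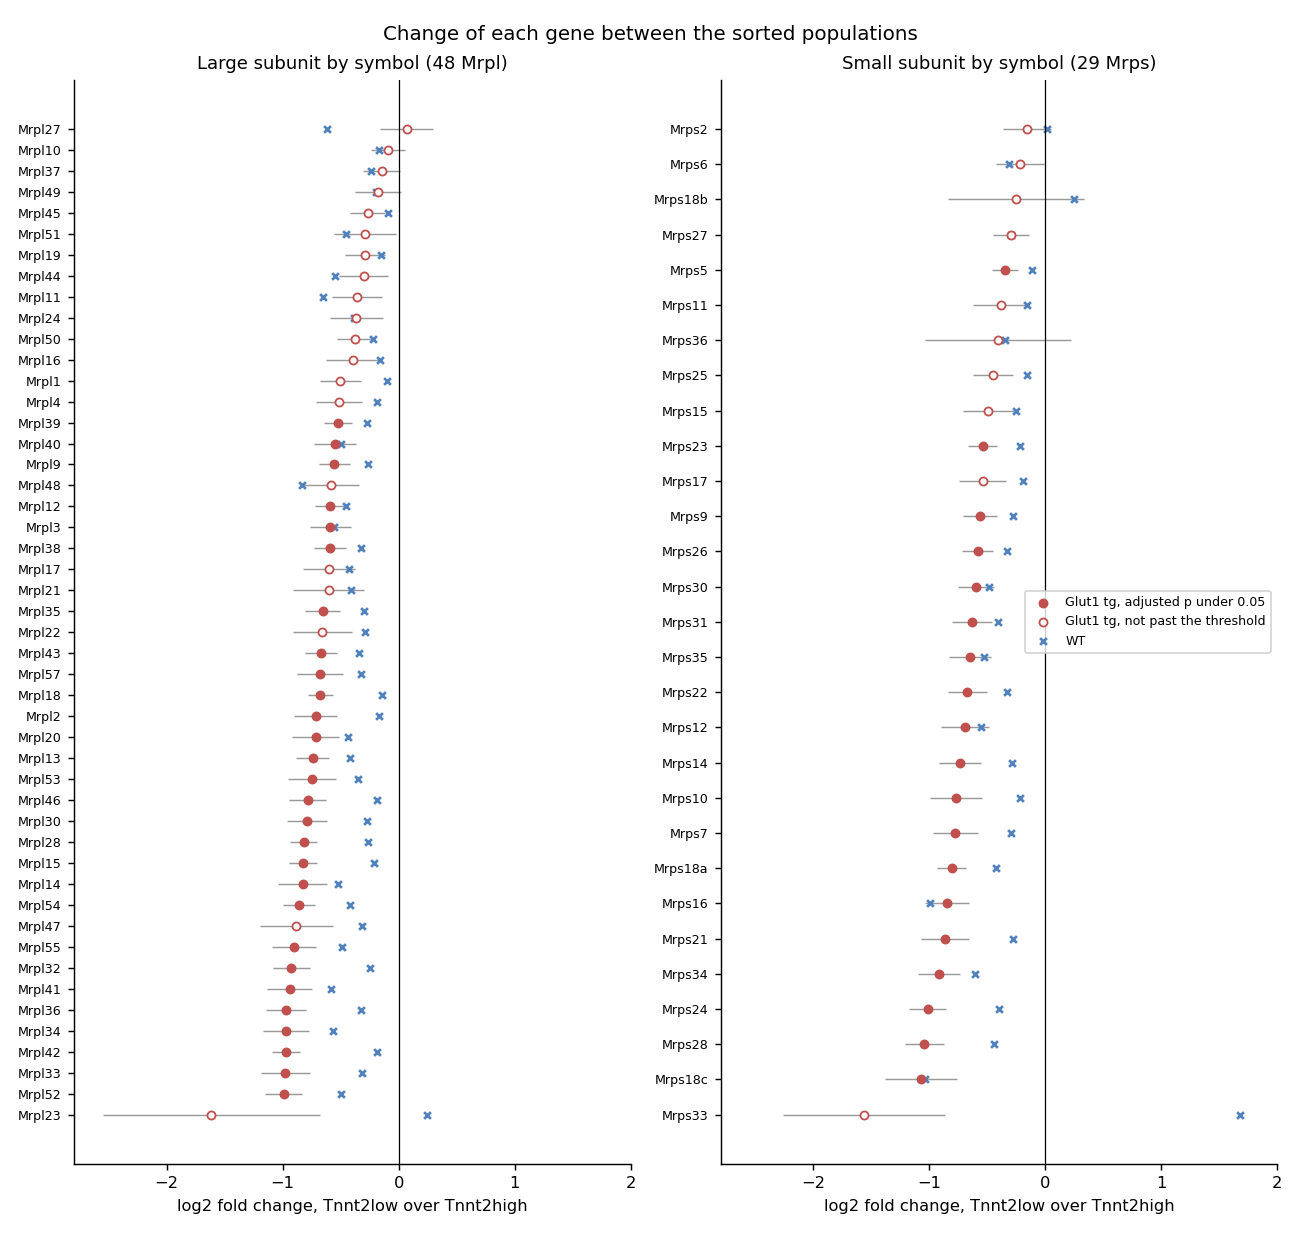
Log2 fold change of Tnnt2low over Tnnt2high cells (horizontal axis) for each Mrpl gene (left) and Mrps gene (right), with red circles for Glut1 tg (filled where the adjusted p was under 0.05, bars for 1 SE) and blue crosses for WT. All red circles but 1 lie left of 0, and most blue crosses lie between them and 0.

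Of the large-subunit proteins with a bacterial counterpart, 17 of 30 passed (median -0.67). Mrpl28 (chr17:26123500-26126613, mm10) was at 65.2, 67.1, 76.4 and 68.4 CPM in the 4 Glut1 tg Tnnt2low libraries and 122, 129, 117 and 121 CPM in Tnnt2high (log2 fold change -0.82, SE 0.11, edgeR adjusted p = 0.00141). The groups were far apart for this gene, and its WT libraries lay between them, at 77.6 and 80.3 CPM in Tnnt2low and 101 and 88.6 in Tnnt2high. Mrpl15 (chr1:4773206-4785739), whose bacterial counterpart lies in the core of the large subunit, was at 92.6, 96.4, 110.2 and 119 CPM in Tnnt2low and 168, 187, 209 and 175 CPM in Tnnt2high (log2 fold change -0.82, SE 0.12, edgeR adjusted p = 0.00198). Its WT libraries were at 125 and 121 and at 149 and 136 CPM, respectively. The Glut1 tg groups did not overlap for Mrpl15, and the WT groups were closer together.

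Mrpl18, the counterpart of a bacterial protein that holds the small ribosomal RNA of the central protuberance, was at 177, 194, 197 and 211 CPM in Glut1 tg Tnnt2low and 326, 329, 285 and 305 CPM in Tnnt2high libraries (log2 fold change -0.68, SE 0.11, edgeR adjusted p = 0.00202). It is 1 of the more abundant members, and 13.1% of its sequence words also occur in other transcripts. Mrpl32, which is cut to its mature form by a protease of the inner membrane, was at 26.3, 25.1, 22.1 and 25.1 CPM in Tnnt2low and 43.6, 58.9, 40.7 and 44.4 CPM in Tnnt2high (log2 fold change -0.92, SE 0.16, edgeR adjusted p = 0.00294). Mrpl36, a very small protein, changed by -0.97 (edgeR adjusted p = 0.00337), Mrpl33, also small, by -0.98 (adjusted p = 0.007) and Mrpl13 by -0.74 (adjusted p = 0.0043). Mrpl12, which forms the flexible stalk that recruits translation factors, was lower by less, at 227, 272, 272 and 305 CPM in Tnnt2low against 379, 437, 404 and 396 CPM in Tnnt2high (log2 fold change -0.59, SE 0.14, edgeR adjusted p = 0.0102). For each of these 6 genes the 2 groups did not overlap.

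Of the 20 large-subunit proteins classed as specific to mitochondria, 13 passed (median -0.59). The smallest p among all members belonged to Mrpl42 (chr10:95480805-95501940), which was at 140.5, 163, 147 and 176 CPM in Glut1 tg Tnnt2low and 309, 343, 277 and 299.9 CPM in Tnnt2high libraries (log2 fold change -0.97, SE 0.12, edgeR adjusted p = 0.00111). Its highest Tnnt2low library was well below its lowest Tnnt2high library, and 26.6% of its words are shared with other transcripts. Mrpl52 shares no words, and was at 71.4, 57.1, 49.9 and 65.2 CPM in Tnnt2low and 118, 123, 106 and 137 CPM in Tnnt2high (log2 fold change -0.99, SE 0.16, edgeR adjusted p = 0.00199). Mrpl54 changed by -0.86 (edgeR adjusted p = 0.00209), Mrpl46 by -0.79 (adjusted p = 0.0054) and Mrpl41 by -0.94 (adjusted p = 0.00556). Mrps18a carries a small-subunit symbol, although the structure of the mammalian mitoribosome places its protein in the large subunit. It was at 49.3, 55.2, 50.1 and 56.7 CPM in Tnnt2low and 88.4, 100.2, 89.02 and 92.8 CPM in Tnnt2high (log2 fold change -0.81, SE 0.12, edgeR adjusted p = 0.00198). Counted by structure, with Mrps18a and Mrps30 moved and Mrps36 left out, 30 of 50 large-subunit and 17 of 26 small-subunit genes passed, with medians of -0.66 and -0.64.

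Of the small-subunit proteins with a bacterial counterpart, 11 of 16 passed (median -0.71). Mrps24 (chr11:5703983-5715680), the counterpart of a bacterial protein near the mRNA entry, was at 54.6, 68.02, 64.1 and 75.5 CPM in Glut1 tg Tnnt2low and 128, 148, 129 and 124 CPM in Tnnt2high libraries (log2 fold change -1.01, SE 0.16, edgeR adjusted p = 0.00198). Mrps28 was at 52.97, 41.8, 40.2 and 44.3 CPM and 97.7, 113, 74.6 and 84.2 CPM, respectively (log2 fold change -1.04, SE 0.17, edgeR adjusted p = 0.00209). Neither gene's groups overlapped, and both were about as far apart as those of Mrpl42. Mrps16, which in bacteria helps to fold the ribosomal RNA of the subunit body, was at 20.1, 21.7, 24.4 and 17.4 CPM in Tnnt2low and 36.1, 47.1, 29.3 and 38.2 CPM in Tnnt2high (log2 fold change -0.85, SE 0.19, edgeR adjusted p = 0.00847). Mrps21 changed by -0.86 (edgeR adjusted p = 0.0122) and Mrps10 by -0.77 (adjusted p = 0.0322). Mrps18c, the member of its protein family that stands where the bacterial protein does, was at 9.27, 9.65, 7.87 and 11.8 CPM and 34.1, 20.8, 12.6 and 13.3 CPM (log2 fold change -1.07, SE 0.31, edgeR adjusted p = 0.0283). Its Tnnt2high libraries spread widely, 22.3% of its words are shared, and it passed in 7 of the 12 fits that left out 1 library, where Mrps10 passed in 6.

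Of the 10 small-subunit proteins classed as specific to mitochondria, 6 passed (median -0.61). Mrps34, which the small subunit needs for its stability, was at 49.5, 71.3, 50.5 and 56.4 CPM in Glut1 tg Tnnt2low and 106, 133, 90.01 and 101 CPM in Tnnt2high libraries (log2 fold change -0.92, SE 0.18, edgeR adjusted p = 0.00518). A neighbouring gene overlaps 62.7% of the exon bases of Mrps34, and reads there could have been counted for either or for none. Among the 45 genes with under 5% shared words 29 passed (median -0.64), and among the 51 genes with under 5% exon overlap 35 passed (median -0.67), so that both shares were close to that of all 77.

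The 30 genes that did not pass included some whose levels were close in the 2 populations. Mrpl27, whose bacterial counterpart reaches the peptidyl transferase centre, had the only positive value, at 21.8, 19.2, 29.3 and 14.6 CPM in Glut1 tg Tnnt2low and 24.6, 18.3, 15.9 and 21.8 CPM in Tnnt2high (log2 fold change 0.07, SE 0.23, edgeR adjusted p = 0.87), and 49.8% of its words are shared. Mrpl10, the base of the stalk that carries Mrpl12, was at 42.2, 41.9, 38.96 and 37.6 CPM and 35.3, 52.02, 45.6 and 38.4 CPM (log2 fold change -0.09, SE 0.15, edgeR adjusted p = 0.724). The groups of both genes overlapped throughout. Mrpl37 had log2 fold change -0.15, SE 0.16, edgeR adjusted p = 0.577, Mrpl49 log2 fold change -0.18, SE 0.20, edgeR adjusted p = 0.584, and Mrps2 log2 fold change -0.16, SE 0.21, edgeR adjusted p = 0.655. The errors leave room for modest differences in either direction.

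Other genes that did not pass had scattered libraries. Mrpl23, at the exit of the peptide tunnel, was at 22.8, 31.3, 0 and 0 CPM in Glut1 tg Tnnt2low and 70.4, 12.6, 48.6 and 35.1 CPM in Tnnt2high (log2 fold change -1.61, SE 0.93, edgeR adjusted p = 0.262). It was listed at 0 in 2 libraries, and 53.1% of its words are shared with other transcripts, among them its pseudogene Mrpl23-ps1. Mrps18b, which overlaps another gene over 59.1% of its exon bases and shares 33.2% of its words, was at 24.00, 20.99, 23.1 and 2.94 CPM and 19.4, 37.5, 2.73 and 25.6 CPM, with 1 low library in each population. Mrps33 was the least abundant gene, at 1.15, 1.35, 1.65 and 1.02 CPM and 6.66, 4.38, 0.496 and 3.80 CPM (log2 fold change -1.57, SE 0.70, edgeR adjusted p = 0.141). Of its words, 17.1% are shared with other transcripts. Mrps36, which shares 40% of its words and was listed at 0 in 1 Glut1 tg Tnnt2high library, bears a ribosomal symbol, but its protein belongs to the 2-oxoglutarate dehydrogenase complex.

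Length went with the difference. The 77 genes are short, with a median exon length of 1363 bases (478 to 7605) against 3415 bases for all tested genes, and short genes in general tended to be lower in Glut1 tg Tnnt2low cells. Across genes, which are not independent replicates, the Spearman correlation of the log2 fold change with exon length was 0.53 over 12186 genes with a length and 0.42 over the 77 genes. Under 2000 bases, 34 of 52 of the genes passed as lower (median -0.70), against 668 of 2705 other genes (24.7%, median -0.51). At 2000 bases or more, 13 of 25 passed (52%, median -0.58), against 303 of 9404 other genes (3.22%, median 0.13). In both classes a larger share of the members than of the other genes was lower, and the medians were further apart in the class of longer genes.

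An offset per library for length and GC content reduced the trend without removing it. From the shortest to the longest length bin, the median of other genes rose from -0.78 to 0.52 without the offset and from -0.07 to 0.11 with it. With the offset, 6 of the 77 genes remained past the threshold, and 0.914% of all genes were then lower. These were Mrpl15 (-1.01, edgeR adjusted p = 0.00617), Mrpl32 (-0.82, edgeR adjusted p = 0.0294), Mrpl35 (-0.67, edgeR adjusted p = 0.0397), Mrpl3 (-0.76, edgeR adjusted p = 0.0438), Mrps26 (-0.73, edgeR adjusted p = 0.0294) and Mrps5 (-0.48, edgeR adjusted p = 0.0398). All 6 are at least 2000 bases long. Mrpl3 and Mrpl35 descend from bacterial large-subunit proteins, Mrps5 from a protein of the bacterial small subunit, and Mrps26 is known only from mitochondria. The median of the 77 genes became -0.24, with 61 of them negative. Under 2000 bases it was -0.14 (0 of 52 passed, other genes -0.07), and at 2000 bases or more it was -0.67 (6 of 25 passed, 24 of them negative, other genes 0.04). Annotated exon length takes in the exons of all isoforms, used in these cells or not, and with the length of the shortest transcript in its place 22 genes passed (2.8% of all genes), with a median of -0.44. With the hearts as pairs in the fit and the length and GC offset, 11 genes passed (2.29% of all genes), the 6 above and Mrps25, Mrps14, Mrps30, Mrps35 and Mrps16. Whether the trend with length arose in the cells or in the libraries was not tested.

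**Figure D3:**
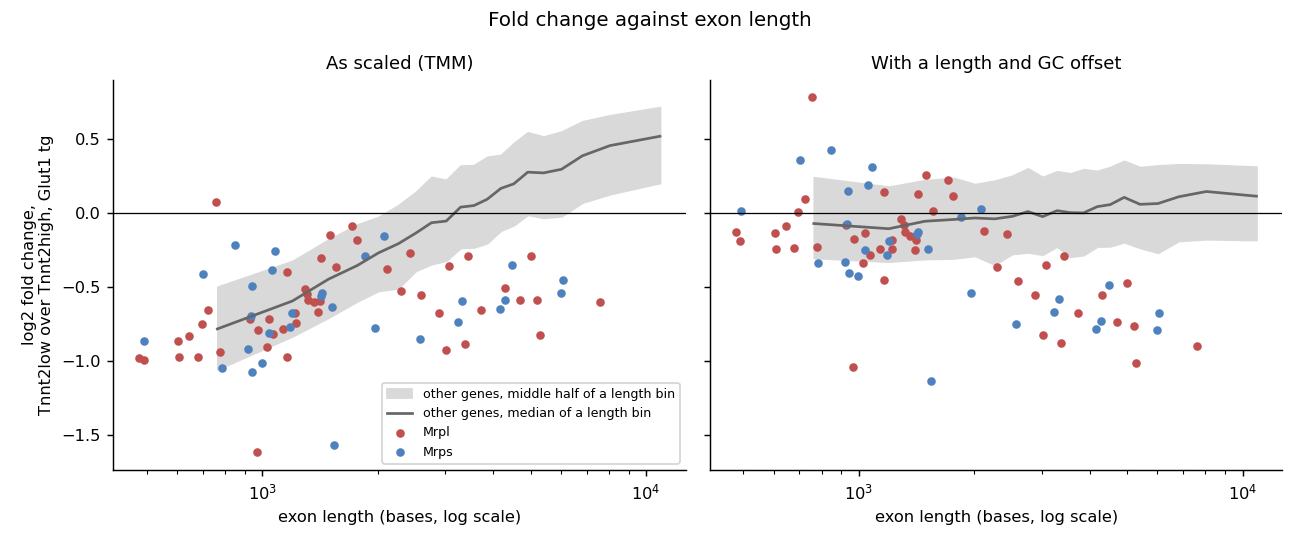
Log2 fold change of Glut1 tg Tnnt2low over Tnnt2high cells (vertical axis) against exon length in bases (horizontal axis, log scale) for Mrpl (red) and Mrps genes (blue), with the median (line) and the middle 50% (band) of other genes in length bins, as scaled (left) and with the length and GC offset (right). In both panels nearly all members of 2000 bases or more lie below it.

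Markers of other cell types also differed between the populations. For the counts in Glut1 tg below, 8.33% of all tested genes were lower and 8.42% higher, and 15.3% were lower at an unadjusted p under 0.05. The summed level of 12 fibroblast and matrix genes was 67.5 to 123 CPM in Glut1 tg Tnnt2low and 247 to 1066 CPM in Tnnt2high libraries, and 8 of them were lower in Tnnt2low (median log2 fold change -2.65). In WT the sums were 146 to 209 and 143 to 517 CPM. The sum of 12 endothelial genes was 10.4 to 97.2 CPM in Glut1 tg Tnnt2low and 41.0 to 324 in Tnnt2high, with 0 genes past the threshold and 8 lower at an unadjusted p under 0.05 (median -2.23). The 14 cardiomyocyte genes summed to 118483 to 136130 CPM in Glut1 tg Tnnt2low and 137045 to 147795 CPM in Tnnt2high, 6 lower and 1 higher. The 9 smooth muscle and pericyte genes summed to 1470 to 1711 CPM and 1516 to 1997 CPM, with 1 lower and 2 higher. Leukocyte, erythroid and epicardial genes stayed at 20.1 CPM or less in every Glut1 tg library, and 4 of the 7 erythroid genes and 1 of the 6 epicardial genes were at 0 in all libraries. Cardiomyocyte markers thus dominated every library, and the part of the other cells in the results above was not tested. The share of reads counted as matching no exon moved with the populations as well. So did the count of reads on genes, and the part of both was not tested either.

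In WT hearts the genes pointed the same way, and 0 of the 77 passed the threshold in edgeR's quasi-likelihood test, as did 0% of all genes. The log2 fold change of Tnnt2low over Tnnt2high was negative for 73 genes, with a median of -0.31 (Mrpl -0.32, Mrps -0.30). It was negative for 94.2% of members under 2000 bases and 73.2% of other genes of that length (medians -0.32 and -0.24). At 2000 bases or more the shares were 96% and 43.2% (medians -0.29 and 0.06). Over all genes with a length, the Spearman correlation of the WT log2 fold change with exon length was 0.34. At an unadjusted p under 0.05, 11 genes were lower and 0 higher, where 1.91% of all genes were lower and 1.2% higher. DESeq2 called 0 of the 77 (0.0118% of all genes as lower). The 2 WT pairs differed. In pair 1, 75 genes were lower in Tnnt2low with a median of -0.66, and in pair 2, 49 genes with a median of -0.04. Shares of all genes lower within each pair are not given here. The reads counted as matching no exon, per gene read, also differed between the pairs. They were higher in Tnnt2high by 0.703 in pair 1 and by 0.0152 in pair 2. This difference was 1.25, 1.68, 1.44 and 1.32 in the 4 Glut1 tg hearts.

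Among single genes in WT, Mrps16 was at 15.9 and 19.4 CPM in Tnnt2low and 40.5 and 30.02 CPM in Tnnt2high libraries (log2 fold change -0.99, SE 0.27, unadjusted p = 0.00237, edgeR adjusted p = 1). Mrps18c was at 6.85 and 9.27 and 18.7 and 14.4 CPM, with a log2 fold change of -1.03. The libraries of the WT populations did not overlap for these 2 genes (14.9% of all genes were lower without overlap in WT), whose WT and Glut1 tg values were alike in size. Further negative values were -0.83 for Mrpl48, -0.65 for Mrpl11, whose bacterial counterpart sits at the base of the stalk, and -0.62 for Mrpl27. Mrps33 had the largest positive value, 1.68, from 1 Tnnt2low library at 16.8 CPM beside 2.08 in the other, and it was -0.49 without that library. Mrpl23 (0.24), Mrps18b (0.24), Mrps2 (0.02) and Mrpl45 (-0.09), which tethers the ribosome to the inner membrane, completed the upper end, and all were well within their errors.

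The genotypes were compared within each population. Transcripts that mark sex were not balanced between them. The Y-linked gene Ddx3y was at 0 CPM in all 4 WT libraries, and in Glut1 tg it was above 1 CPM in 2 of 4 libraries of each population, with up to 65.2 CPM. Xist, which is transcribed from the inactive X chromosome, was at 199 to 504.1 CPM in WT and at 0 to 453 CPM in Glut1 tg libraries. The part of sex in the values below was not tested. In Tnnt2low cells, 0 of the 77 genes passed the threshold between Glut1 tg and WT in edgeR's quasi-likelihood test, and 0.00816% of all genes did. The median log2 fold change of Glut1 tg over WT was -0.06 (Mrpl -0.04, Mrps -0.11), and 5 genes were lower at an unadjusted p under 0.05 (1.16% of all genes) and 0 higher (0.93%). DESeq2 called 0 of the 77 (0.0118% of all genes as lower). Mrps33 was the most negative at -2.85 (edgeR adjusted p = 1), and at -0.68 without the same WT library. Next came Mrpl23 (-1.43), Mrps10 (-0.74), Mrps21 (-0.59) and Mrps28 (-0.51). For Mrps10 the 4 Glut1 tg libraries were at 20.1, 24.9, 25.4 and 19.4 CPM and the WT libraries at 39.01 and 35.7 CPM, without overlap (6.02% of all genes were lower in this way, unadjusted p = 0.0153, edgeR adjusted p = 1). The most positive values were small: 0.44 for Mrpl27, 0.35 for Mrpl51, 0.30 for Mrpl11, 0.29 for Mrpl3 and 0.26 for Mrps18c.

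In Tnnt2high cells, 0 of the 77 genes and 0% of all genes passed between the genotypes, the median was 0.21 in favour of Glut1 tg, and 8 genes were higher at an unadjusted p under 0.05 (2.17% of all genes) and 0 lower (3.13%). DESeq2 called 0 of the 77 (0.00592% of all genes as lower). Mrpl36 had the largest value, at 39.96, 37.5, 39.2 and 30.6 CPM in Glut1 tg and 25.5 and 22.3 CPM in WT Tnnt2high libraries (log2 fold change 0.62, SE 0.22, edgeR adjusted p = 0.899). Mrpl22 (0.60), Mrpl33 (0.53), Mrps18b (0.50) and Mrpl1 (0.49) followed. The lowest values were -0.25 for Mrpl27, -0.18 for Mrps10, -0.14 for Mrps6, -0.13 for Mrpl44 and -0.12 for Mrpl37, each smaller than its error. Since these comparisons use the libraries of the comparison between populations, they are not independent of it.

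The difference between the genotypes in the step from Tnnt2high to Tnnt2low was tested directly as an interaction. No member passed (0 of 77, 0% of all genes) in edgeR, and DESeq2 called 0 (0.0178% of all genes as lower). The interaction was negative for 65 genes, with a median of -0.31 (Mrpl -0.32, Mrps -0.28). At an unadjusted p under 0.05, 9 genes were lower (2.2% of all genes) and 0 higher (2.32%). The share of all genes with a negative interaction is not given here. Over all genes with a length, the correlation of log2 fold change with exon length was 0.53 in Glut1 tg and 0.34 in WT. The length and GC offset made the median interaction smaller, as given in the last section, and the part of length was not tested. Mrps33 (-3.25), Mrpl23 (-1.86), Mrpl42 (-0.79), Mrpl32 (-0.68) and Mrpl33 (-0.66) were the most negative. The first 2 of these rest on scattered libraries, and Mrps33 was at -1.07 without 1 WT library. For Mrpl42 the WT libraries were at 179.7 and 216 CPM in Tnnt2low and 233 and 217 CPM in Tnnt2high, barely apart, where the Glut1 tg groups were far apart (unadjusted p = 0.00165, edgeR adjusted p = 0.961). The most positive were Mrpl27 (0.69), Mrpl11 (0.29), Mrpl44 and Mrpl48 (both 0.25) and Mrpl51 (0.17). No single gene was thus shown to differ more between the populations in Glut1 tg than in WT hearts.

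Levels between genes can be compared per kilobase of exon, and the mean over the 12 libraries ranged from 2.45 to 332 CPM per kilobase, with a median of 30.7 (Mrpl 31.1, Mrps 28.5). The genes are thus far from equally abundant, although the ribosome holds most of these proteins in equal number. Mrpl42 stood highest with 332 CPM per kilobase, followed by Mrpl12 with 250.2, of which the ribosome holds several copies. Mrpl18 had 201, Mrpl52 184, Mrpl54 142 and Mrps21 138 CPM per kilobase. Mrps33 was lowest with 2.45, then Mrpl17 with 3.19, Mrpl19 with 6.29 and Mrps17 with 6.53 CPM per kilobase. The annotated exons of Mrpl17 and Mrps17 span 7605 and 6003 bases, mainly through long isoforms, whereas their shortest transcripts have 1028 and 832 bases, and this lowers a level per kilobase. For Mrps33 the annotated exons span 1538 bases and the shortest transcript has 500. In Glut1 tg cells Mrpl17 changed by -0.60 (edgeR adjusted p = 0.0842), Mrps17 by -0.54 (adjusted p = 0.0787) and Mrpl19 by -0.29 (adjusted p = 0.273), and none passed.

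The motif matches did not go with a clear difference in size. Among the genes with a promoter, the median log2 fold change in Glut1 tg cells was -0.55 with the NRF1 letters and -0.65 without, -0.59 and -0.65 for the ETS letters, -0.68 and -0.62 for YY1, and -0.72 and -0.60 for the E-box. Lower calls numbered 3 of 7, 6 of 10, 1 of 2 and 4 of 5, respectively. Mrpl32 and Mrpl10, whose promoters are printed above, share the NRF1 letters and had log2 fold changes of -0.92 and -0.09.

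Other genes of the pathway were taken from lists. Beside their counts stand the shares of all tested genes in this comparison, 8.33% lower and 8.42% higher. Of 6 further subunits of the mitochondrial ribosome, which bear other symbols, 3 were lower in Glut1 tg Tnnt2low cells and 0 higher (median -0.56). These were Aurkaip1 (log2 fold change -0.86, edgeR adjusted p = 0.00202), Ict1, a peptidyl-tRNA hydrolase within the large subunit (-0.64, adjusted p = 0.0177), and Chchd1 (-0.74, adjusted p = 0.0234). Of 23 assembly factors 4 were lower (median -0.28), among them Malsu1, which keeps the subunits apart during assembly (-1.04, edgeR adjusted p = 0.0127), Rbfa, which binds the small subunit as it matures (-0.56, adjusted p = 0.0377), and Fastkd2, an RNA-binding protein of mitochondrial RNA granules (-0.72, adjusted p = 0.0471). The medians were further from 0 for the ribosomal proteins than for the factors that build the ribosome, a difference that was not tested.

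Of 15 translation factors 2 were lower (median -0.18), Slirp, which stabilises mitochondrial mRNAs (-1.03, edgeR adjusted p = 0.0381), and Tsfm, the exchange factor of the elongation factor Tufm (-0.50, adjusted p = 0.0499). The translation factor Guf1 did not pass (-0.35, edgeR adjusted p = 0.113). Of 20 mitochondrial tRNA synthetases 3 were lower (median -0.11), Yars2 (-0.84, edgeR adjusted p = 0.0145), Fars2 (-0.58, adjusted p = 0.0187) and Nars2 (-0.77, adjusted p = 0.0354). Over all tested genes 8.33% were lower, and whether these lists held a larger share was not tested.

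The list of 18 tested genes for transcription and copy number of mitochondrial DNA, with their upstream regulators, did not share the direction (median 0.05, 0 lower and 2 higher). Over all tested genes 8.42% were higher. The coactivators Ppargc1a and Ppargc1b, which stimulate mitochondrial biogenesis, were higher in Tnnt2low cells. Ppargc1a was at 194 ± 6.56 CPM in Glut1 tg Tnnt2low and 149 ± 6.02 CPM in Tnnt2high (SD, 4 libraries each, log2 fold change 0.38, edgeR adjusted p = 0.0217), and Ppargc1b at 157 ± 11.7 and 99.8 ± 18.97 CPM (0.66, edgeR adjusted p = 0.0109). Esrra, a nuclear receptor that works with them, did not pass (-0.42, edgeR adjusted p = 0.0809). Both coactivators are long genes, and neither passed with the length and GC offset.

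Of 77 nuclear genes of the respiratory chain 66 were lower and 1 higher (median -0.86), led by the complex I subunits Ndufa1 (-1.13), Ndufa11 (-1.12) and Ndufb11 (-1.09). Of 77 tested proteins of the cytosolic ribosome 45 were lower and 0 higher (median -0.94), among them Rpl35 (-2.01) and Rplp1 (-1.15). Both lists are shorter still than the mitochondrial ribosomal genes, with median exon lengths of 1001 and 977 bases, and with the length and GC offset their medians were -0.25 and -0.34, near that of the 77 genes. The mRNAs that the mitochondrial ribosome translates were not analysed here, since the tables hold 0 mitochondrially encoded genes. In WT and between the genotypes 0 genes of any of these lists passed, and the WT medians were -0.42 for the further subunits, -0.06 for assembly factors, -0.08 for translation factors, -0.01 for tRNA synthetases, -0.05 for transcription and copy number, -0.39 for the respiratory chain and -0.53 for the cytosolic ribosome.

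**Figure D4:**
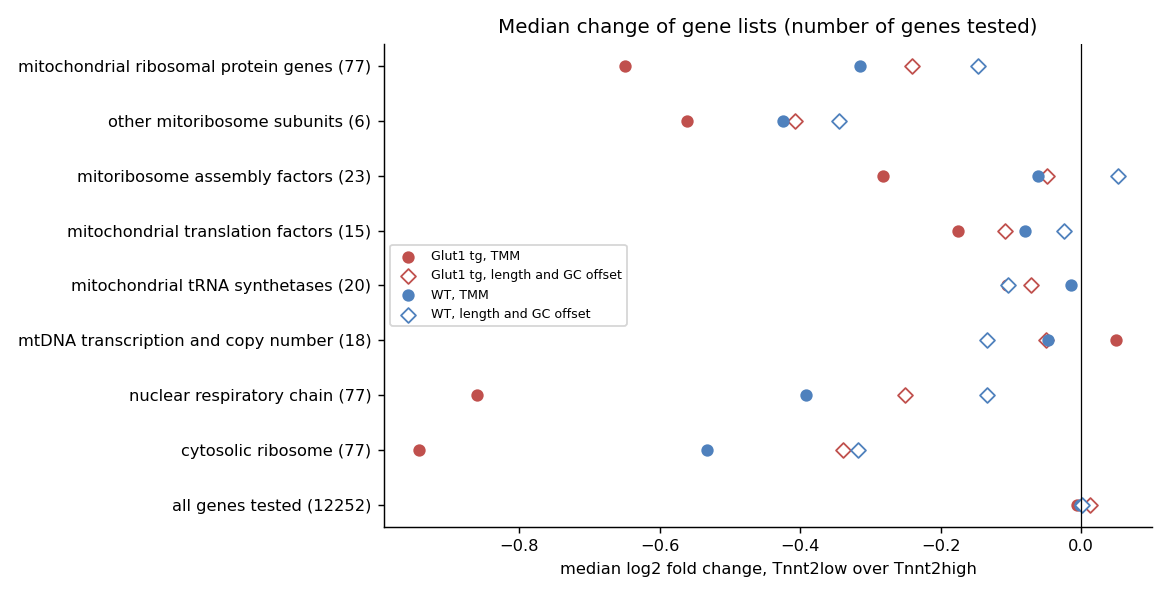
Median log2 fold change of Tnnt2low over Tnnt2high cells (horizontal axis) of the mitochondrial ribosomal protein genes and of 7 other lists and all tested genes (rows, with the number tested), for Glut1 tg (red) and WT (blue), as scaled (filled circles) and with the length and GC offset (open diamonds). The 77 genes lie at -0.65 in Glut1 tg and -0.31 in WT, and at -0.24 and -0.15 with the offset.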

How the data were processed

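RNA was sequenced single-end in 12 libraries. The authors checked reads with FastQC, trimmed bases of low quality, aligned reads to the mouse genome mm10 with HISAT2 at default settings and used HTSeq to count reads over the union of each gene's exons. The deposited values are raw counts per gene, 1 table per library. Tool versions, counting mode and strand setting were not given in the sources used here. Every table has 5 lines that name no gene, which were left out of library sizes and tests. Reads counted as matching no exon made up 28.8% to 46.5% of all records. Reads aligned to several places made up 28.2% to 40.9%, and ambiguous reads 0.242% to 0.581%. Reads of members that share sequence with pseudogenes fall in part among those aligned to several places.

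Groups were taken from the sample labels. The 4 groups were fitted together on the counts with edgeR 4.0.16 (R 4.3.3), using TMM scaling, filterByExpr (12252 genes kept) and the quasi-likelihood F test, with p adjusted by Benjamini-Hochberg over all tested genes and called under 0.05. CPM used a prior count of 2 only on the log scale. The common biological coefficient of variation was 0.314. DESeq2 1.42.0, which the authors had used, was an alternative. The other alternatives were RLE size factors, no filter on low counts, a robust fit, only the libraries compared, a replicate block, each library left out, an offset per library for exon length and GC content (loess, span 0.3, over 12186 genes, 99.5% of those tested), that offset with the block, and members with 5% or more shared sequence left out. Shared sequence was sought as words in GENCODE vM21 transcripts, since no genome sequence was used. The search in transcripts, the exon overlap limit, the offset from the shortest transcript and the split of genes at 2000 bases were chosen after seeing the data. Lengths, overlaps and mm10 coordinates came from GENCODE vM21, in which 24051 of 24421 symbols (98.5%) were found, 667 of them through an older symbol. Promoters came from RefSeq GRCm38.p6, and none was listed for Mrpl4, Mrpl13, Mrpl15, Mrpl19, Mrpl38, Mrpl54, Mrps28, Mrps34 and Mrps35. The tests were also run on simulated counts, into which no trend with length was put. That run therefore cannot speak to the length trend, and its outcome is not given here.

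The members and the gene lists were chosen with earlier results of these data known. Named were the 15 called members of smallest p, the 5 most negative and 5 most positive members of each comparison, the 6 highest and 4 lowest per kilobase, and the 3 genes of smallest p in each pathway list. One gene that this rule names is not reported here. Cell type lists are given as sums, which departs from that rule. Mrps25, Mrps14, Mrps30, Mrps35, Mrpl35, Mrps26 and Mrps5 were named after their values were seen, because they passed with an offset, and Mrps36 because of what its protein is.

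The labels name the heart of each Glut1 tg library, and those of WT begin with the same heart number. Deviations from the group means of Tnnt2low and Tnnt2high libraries of 1 heart correlated across genes with r = 0.226, 0.131, 0.118 and 0.107 in Glut1 tg. Libraries of different Glut1 tg hearts gave r from -0.151 to 0.120. In WT, libraries of the same replicate gave r = 0.271, where 2 libraries per group give a single value. Replicates of a group differed by more than counting error: divided by the number of genes, the chi-square statistic was 13.4 to 26.5 in 14 pairs of libraries. Since the WT libraries may stem from 1 heart, p-values measure the spread between libraries, which may in part be technical. Depth, given as reads on genes, limits the precision for scarce members. Python 3.11.15 with pandas 2.3.3, numpy 2.4.6, scipy 1.17.1 and matplotlib 3.10.9 was used for summaries and figures.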

Additional observations from a re-analysis of the deposited data

Results flagged for a closer look

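For the members named by the rule in the methods, for the summed level and for the difference between the subunits, the highest and lowest library of each Glut1 tg group were compared with the other 3 libraries of the group by Dixon's test. In 86 groups of 4 libraries, 5 held a library far from the others, where chance alone gives about 1 in 20 groups, or 4.3 groups. Mrpl44, a protein related to RNase III enzymes, had a high library in both populations. In Glut1 tg Tnnt2low replicate 4 reached 36.6 CPM beside 20.2 to 22.7 CPM in the others, and in Tnnt2high replicate 1 reached 33.9 CPM beside 29.2 to 29.8 CPM. Mrps18b was at 2.94 CPM in Glut1 tg Tnnt2low replicate 4 and at 20.99 to 24.00 CPM in the other 3 libraries. Replicate 3 of Glut1 tg Tnnt2high was low for 2 members, with Mrpl37 at 51.8 CPM beside 72.2 to 75.03 CPM and Mrpl54 at 104.9 CPM beside 113 to 113.6 CPM. The gap for Mrpl54 was small relative to its level. WT groups have 2 libraries and were not tested.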

How the results depend on the processing

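In Glut1 tg Tnnt2low against Tnnt2high cells, 47 members passed, and the number was 52 with DESeq2, 47 with RLE size factors, 46 without the filter, 47 with the robust fit and 51 with only the compared libraries. It was 29 of 45 without members of shared sequence and 35 of 51 without members of overlapping exons. The length and GC offset reduced it to 6, the offset from the shortest transcript to 22 and the replicate block with the length and GC offset to 11. Of all genes, 8.33% were lower in the main fit, 11.5% with DESeq2, and 0.914%, 2.8% and 2.29% in the fits with an offset, respectively. For the other fits that share is not given here, and their counts stand without it. The median moved from -0.65 to -0.24, -0.44 and -0.24, and the median interaction from -0.31 to -0.11 with the length and GC offset, with or without the block. The cause was not tested. The offset left 61 of the 77 members negative, where 76 had been. Among the genes it turned to a positive value were Mrps21 (0.013) and Mrpl53 (0.0082), which had passed before, and Mrpl10 (0.22), Mrpl37 (0.26), Mrpl49 (0.11) and Mrps2 (0.024), and of the further subunits Chchd1 (0.0030). The offset from the shortest transcript gave 0.27 for Mrpl10 and 0.064 for Mrpl37.

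The labels pair the libraries by heart in Glut1 tg and by replicate in WT. With the replicate block 47 members passed, 46 of them as without it. The share of all genes called lower with the block alone is not given here. Mrps5 was lost (edgeR adjusted p = 0.0789 against 0.0465) and Mrpl1 gained (adjusted p = 0.0491 against 0.0656). With the block 0 members passed in the WT comparison and the interaction, as without it. The block gave -0.011 for Mrps2 in WT. Together with the offset the replicate block gave 0.24 for Mrpl10, 0.25 for Mrpl37, 0.11 for Mrpl49 and 0.075 for Mrps2 in Glut1 tg, and 0.0057 for Mrpl45 in WT.

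With each library left out in turn, the median of the members in Glut1 tg was -0.68 to -0.59. Where 1 WT library was left, it was assumed to vary like the other groups. The WT median was -0.53 to -0.15, the interaction median -0.45 to -0.14, and the median of Glut1 tg over WT was -0.19 to 0.02 in Tnnt2low and 0.02 to 0.42 in Tnnt2high. Without WT Tnnt2high replicate 1 the WT median was -0.15, without replicate 2 it was -0.53. The median of Mrpl minus that of Mrps was -0.057 to 0.077 in WT and -0.011 to 0.11 between genotypes in Tnnt2low. Signs of small values turned. The ranges in Glut1 tg were -0.17 to 0.014 for Mrpl10, -0.13 to 0.21 for Mrpl27 and -0.27 to 0.057 for Mrps2. In WT they were -0.35 to 0.67 for Mrpl23, -0.38 to 0.27 for Mrpl45, -0.068 to 0.67 for Mrps18b, -0.29 to 0.27 for Mrps2 and -0.49 to 2.52 for Mrps33, whose counts are low. Between genotypes in Tnnt2high they were -0.30 to 0.078 for Mrpl37, -0.38 to 0.16 for Mrpl44, -0.58 to 0.35 for Mrps10 and -0.46 to 0.27 for Mrps6. For the interaction they were -0.0078 to 0.54 for Mrpl11, -0.045 to 0.49 for Mrpl44, -0.29 to 1.10 for Mrpl48 and -0.13 to 0.42 for Mrpl51. None of these genes passed the threshold in the comparison named, and 0 members passed outside Glut1 tg under any alternative.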
